A study of Mus musculus with 24 samples.

Results

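Day 2 of optic vesicle (OV) organoid culture was compared with day 1 across all genes measured by RNA-seq. The step was chosen as one of exit from pluripotency, but in these data the naive genes fell while the days overlapped in Pou5f1, so it is called the day 1 to day 2 step below. The comparison used 6 of the 24 libraries of a time course, 3 on each day, and the libraries were selected by their day labels alone. The time course ran from day 0 to day 5. On days 0 to 3 live cells were collected regardless of GFP, and on days 4 and 5 they were separated into GFP-positive and GFP-negative fractions.

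Every library came from the mouse embryonic stem cell (mESC) line Rx-GFP K/I EB5, which carries GFP knocked into Rax, a transcription factor gene of the eye field. Both days therefore share the reporter allele, and OV differentiation is the one treatment that the labels name for either. The mESCs had been kept without feeder cells in medium with LIF, a cytokine that holds them in the naive state. On day 0 they were dissociated and 4500 cells per well were left to aggregate in low-adhesion plates, in medium with 1.5% knockout serum replacement per the labels and in chemically defined medium per the methods of the study. Matrigel, a basement membrane extract, was added to 2% on day 1. Whether day 1 cells were collected before or after that addition is not stated in the sources used here. A further day of culture and exposure to Matrigel therefore cannot be told apart. For each sample 24 organoids were pooled and taken apart, and single live cells were kept by sorting. The study describes its replicates as biological, but all derive from 1 cell line, so the p-values below measure the spread among pools of organoids of that line.

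Mouse ES cells in LIF occupy naive pluripotency, the state of the epiblast before implantation, which is maintained by a network of transcription factors that includes Nanog, Esrrb, the Klf factors and Tfcp2l1 around a core of Oct4 (encoded by Pou5f1) and Sox2. When the signals that maintain it are withdrawn, the cells dismantle the naive network, keep Oct4, and pass through a formative to a primed state like that of the epiblast after implantation, with Fgf5, Otx2 and the de novo DNA methyltransferase Dnmt3b among the genes that are switched on. Only then do they commit to a germ layer, and in the neural direction they do so where Nodal, BMP and Wnt signals are low.

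Values are normalized counts, which are kallisto estimates of reads per gene divided by a DESeq2 size factor for each library. They summed to between 46367313 and 47933996 in the 6 libraries, and the step between low values placed the libraries at 41069365 to 54656780 estimated reads. Fold changes are given on the scale of log2(normalized count + 1), which understates the change of low genes, and were tested with limma over 21005 genes with Benjamini-Hochberg adjustment. A gene is termed called where its adjusted p was below 0.001 and its log2 fold change passed 1.5 in either direction. These are the cut-offs of the study, which applied them to DESeq2 fold changes that had been shrunken. The limma fold changes here were not shrunken. "Rose" and "fell" are used for genes with an adjusted p below 0.05, which 9.03% of all genes tested passed upward and 7.54% downward, and the count of each gene list below stands against these shares.

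Day 1 replicate 2 stood apart from the other day 1 libraries. Its rank correlation was 0.986 with both of them, against 0.991 between replicates 1 and 3, and the day 2 libraries correlated with each other at 0.990 to 0.991. Its summed level of 13 genes of the 2-cell-like state, a rare early embryo-like state in ES cell cultures, was 20327 normalized counts against 5047 and 3288 in the others. Values without this library are given beside many of the results below.

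The cells of both days carried the markers of pluripotent cells. The 5 ES cell markers Pou5f1, Nanog, Sox2, Zfp42 and Esrrb summed to between 75488 and 89979 normalized counts on day 1 and between 50245 and 55671 on day 2, while 4 markers of primed epiblast (Fgf5, Otx2, Pou3f1 and Dnmt3b) summed to between 83212 and 93740 on day 1 and between 150356 and 155306 on day 2. Both sums separated the days without overlap. The primed sum was mostly Dnmt3b, which was at 66927 to 75365 on day 1 and 125843 to 130428 on day 2 and missed the test (adjusted p = 0.0559). In these bulk samples, fewer cells of a type and less RNA per cell cannot be told apart. The 4 neural markers Sox1, Pax6, Lhx2 and Six3 remained low and overlapped, at 174 to 234 on day 1 and 221 to 235 on day 2. Markers of other cell types were summed in the same way. The 4 mesendoderm markers summed to 613 to 826 on day 1 and 1016 to 1190 on day 2, mostly Eomes (564 to 753 and then 928 to 1088). The 4 primitive endoderm markers summed to 3689 to 4624 on day 1 and 4074 to 5116 on day 2, mostly Dab2 (2462 to 3295 and then 3312 to 4257). Gata4 (590.2 to 697 and then 409 to 446) and Gata6 (439 to 494 and then 209 to 269) lay lower on day 2 without overlap, and none of these 4 genes had an adjusted p below 0.05. The 8 fibroblast markers summed to 1092 to 1379 on day 1 and 1279 to 1406 on day 2, mostly Thy1, with Lum and Postn below 4 in every library. Of these 8, Col1a2 and Pdgfrb rose (log2 fold change 0.87, adjusted p = 0.039, and 0.49, adjusted p = 0.0491), neither without day 1 replicate 2, and Col3a1 fell, with 15.3 to 36.6 normalized counts on day 1 and 3.37 to 14.5 on day 2 (log2 fold change -1.84, adjusted p = 0.0174). Of 7 blood and immune markers 3 passed the filter on low values (Cd68, Csf1r and Hba-a1). The blood sum was taken over Cd68, Hba-a1 and Ptprc, of which Ptprc did not pass. It was 549 to 695 on day 1 and 239 to 302 on day 2, mostly Cd68, which fell (log2 fold change -1.24, adjusted p = 0.00153). The part of these cells in the results was not tested.

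Between day 1 and day 2, 198 genes were called higher (0.943% of the genes tested) and 111 were called lower (0.528%), 309 in all (1.47%). At an adjusted p below 0.05 alone, 1897 genes rose (9.03%) and 1583 fell (7.54%). The median log2 fold change over all genes was -0.01. The called genes had a median of 1.94 when higher and -2.14 when lower. All 309 called genes separated the days without overlap, which 45.7% of all genes tested also did, 22.1% being higher on day 2 and 23.6% lower. Day 1 replicate 2 was the lowest day 1 library for 136 of the 198 genes called higher and the highest for 92 of the 111 called lower, compared with 35.5% and 39.0% of all genes. Without that library 137 genes were called higher and 31 lower, of which 127 and 27 were among the 198 and 111. The number called lower moved with other libraries too, to 34, 59 and 57 without day 2 replicates 1, 2 and 3, and to 173 without day 0 replicate 1, which enters through the shared estimate of the spread.

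**Figure D1:**
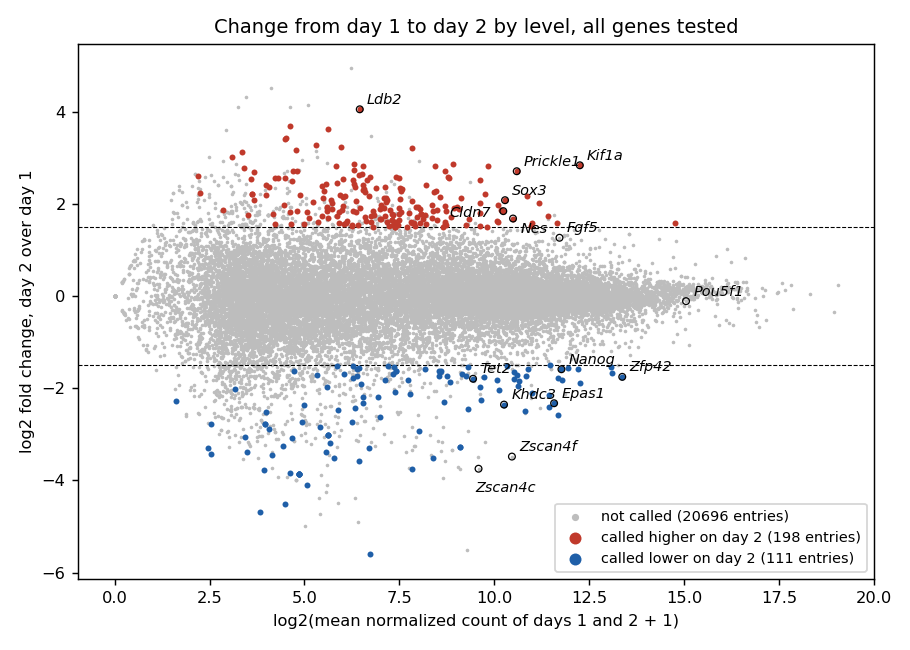
Log2 fold change from day 1 to day 2 (vertical axis, log2 scale) against the mean level over both days (horizontal axis, log2 of the normalized count + 1) for 21005 genes. Red points are the 198 genes called higher, blue points the 111 called lower, grey points the rest, and dashed lines mark 1.5 in each direction. The largest called changes lie at low levels, and Kif1a, Prickle1 and Cldn7 are labelled among the rises at higher levels.

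Protein-coding genes made up 94.9% of those called higher (188 genes) and 70.3% of those called lower (78 genes), with 78.6% among all genes tested. Unnamed models with a Gm or Rik symbol made up 39.6% of the genes called lower (44 genes), against 21% of all genes and 6 of the genes called higher. These models were 3 of the 31 genes called lower without day 1 replicate 2 (9.68%) and protein-coding genes 26 (83.9%). The shares with other libraries left out were not computed. Some of these entries are copies of 1 sequence and are not separate measurements, since 12 entries called lower held only 4 distinct sets of values, and 6 called higher held 3.

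Naive pluripotency genes fell together. Of 18 genes listed for this state, 16 fell and 3 of these, Zfp42, Tet2 and Nanog, were called lower. No listed gene rose by limma, nor did any reach an unadjusted p under 0.05 in that direction. The median log2 fold change of the list was -1.43, against -0.01 over all genes, and all 18 genes were lower in every day 2 library than in any day 1 library, as were 23.6% of all genes. Without day 1 replicate 2 the median was -1.24, 2 genes were called and 7 fell.

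Zfp42, which encodes the zinc finger protein Rex1, a standard marker of the naive state, was at 13259, 21310.0 and 14505 normalized counts on day 1 and 4551, 5020.1 and 4715 on day 2 (log2 fold change -1.75, SE 0.22, adjusted p = 1.1e-05). Every day 1 library was more than 2 times as high as any day 2 library, and day 1 replicate 2 was the highest. Tet2, an enzyme that oxidises methylated cytosine, was at 858, 1391 and 977 on day 1 and 294, 397 and 239 on day 2 (log2 fold change -1.79, SE 0.26, adjusted p = 5.67e-05). Both genes were still called with any one of the 6 libraries left out. Nanog, a core factor of the naive network, was at 4516, 6423 and 4762 on day 1 and 1583, 1839 and 1757 on day 2 (log2 fold change -1.58, SE 0.20, adjusted p = 9.58e-06). Its log2 fold change without day 1 replicate 2 was -1.43 with an adjusted p of 0.000148, short of the fold threshold.

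Other transcription factors of the network fell without reaching both thresholds. Klf4 was at 1020.2, 1599 and 1313 on day 1 and 505, 518 and 385 on day 2 (log2 fold change -1.47, SE 0.21, adjusted p = 3.85e-05). Tfcp2l1, a factor that sustains self-renewal downstream of LIF, was at 2821, 3780.4 and 2938 and then 1016, 1263 and 1212 (log2 fold change -1.44, SE 0.27, adjusted p = 0.000847). Prdm14, a repressor of differentiation and of DNA methylation genes, had the lowest log2 fold change of the list, with 330.1, 648 and 344 on day 1 and 92.9, 131 and 100.1 on day 2 (log2 fold change -1.96, SE 0.42, adjusted p = 0.00233). Day 1 replicate 2 was the highest library for these 3 genes, and they still fell without it, at -1.31, -1.31 and -1.65. Esrrb, an orphan nuclear receptor, was at 10213, 14166 and 11822 on day 1 and 4912, 5444 and 5323 on day 2 (log2 fold change -1.20, SE 0.31, adjusted p = 0.0105), and its adjusted p became 0.058 without day 1 replicate 2. The other members that lost an adjusted p below 0.05 without that library were Klf2, Klf5, Tbx3, Nr0b1, Tcl1, Dppa5a, Fbxo15 and Spp1. The pair that did not fall with all libraries was Dppa3, with 642, 643 and 769 on day 1 and 316, 271 and 354 on day 2 (log2 fold change -1.13, SE 0.55, adjusted p = 0.187), and the metabolic enzyme gene Tdh (log2 fold change -0.70, SE 0.38, adjusted p = 0.239).

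**Figure D2:**
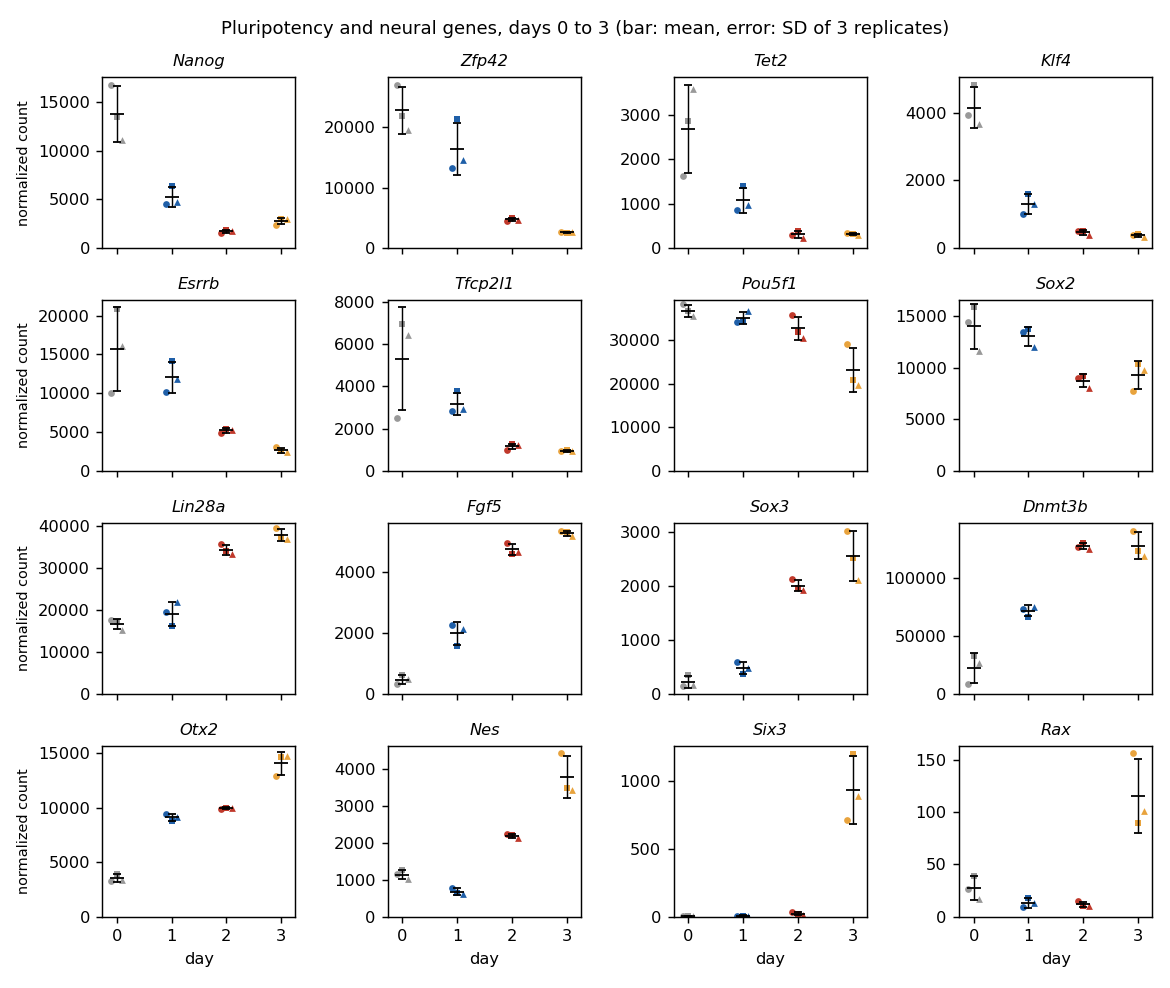
Normalized counts (vertical axes, linear and starting at 0) of 16 genes on days 0 to 3 (horizontal axes), with 1 point per replicate, a bar at the mean and the SD as error. The naive genes of the first panels fall at each step to day 2, Pou5f1 differs little between days 1 and 2, Sox3 and Nes are separated between days 1 and 2, and Six3 and Rax stay near 0 until day 3.

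The promoters of Zfp42 and of Zfp296 are shown because they are the 2 promoter windows of genes called lower that hold the octamer bound by Oct4. Zfp296, which encodes a zinc finger protein that interacts with Klf4 and was chosen after its values were seen, was at 1740.2, 3787 and 2057 normalized counts on day 1 and 665, 702 and 645 on day 2 (log2 fold change -1.83, SE 0.28, adjusted p = 0.000112), and was short of the call without day 1 replicate 2 (adjusted p = 0.00126). The sequences are those of RefSeq on GRCm38.p6, written 5′ to 3′ on the strand of the gene from 250 bases before its start to 50 bases from it. Zfp42 lies on the minus strand at chr8:43306960-43307259 and Zfp296 on the plus strand at chr7:19577037-19577336. Capitals mark the octamer in both, here in the orientation ATTTGCAT, a KLF motif (CCACACCC) in Zfp42 and an E-box (CACGTG) in Zfp296.
Zfp42: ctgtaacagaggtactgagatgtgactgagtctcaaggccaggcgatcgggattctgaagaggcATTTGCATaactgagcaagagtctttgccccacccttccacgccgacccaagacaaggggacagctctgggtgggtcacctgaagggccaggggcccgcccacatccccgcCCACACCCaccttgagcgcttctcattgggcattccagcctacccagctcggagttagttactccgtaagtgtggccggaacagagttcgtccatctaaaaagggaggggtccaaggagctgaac
Zfp296: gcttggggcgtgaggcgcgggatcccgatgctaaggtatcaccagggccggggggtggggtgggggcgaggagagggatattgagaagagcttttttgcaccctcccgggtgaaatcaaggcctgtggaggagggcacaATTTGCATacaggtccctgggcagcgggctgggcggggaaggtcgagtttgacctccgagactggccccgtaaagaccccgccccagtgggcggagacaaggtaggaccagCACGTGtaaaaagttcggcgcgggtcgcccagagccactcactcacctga
The octamer begins 186 bases before the start of Zfp42 and 111 bases before that of Zfp296. These are matches of letters and no binding was measured.

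Of 12 genes listed for pluripotency in general, Lin28a rose (8.33%, beside 9.03% of all genes) and Sox2, Dppa4 and Tdgf1 fell (25%, beside 7.54%), and none was called in either direction by limma, while 3 had an unadjusted p under 0.05 when higher and 4 when lower. The adjusted p of Dppa4 was 0.0785 without day 1 replicate 2. The median log2 fold change was -0.26. Pou5f1 was at 34047, 34399.6 and 36653 normalized counts on day 1 and 35599.9, 31819 and 30447 on day 2, and the days overlapped (log2 fold change -0.11, SE 0.18, adjusted p = 0.778). Sox2 was lower in each day 2 library, at 13453, 13680.2 and 11966 on day 1 and 9025, 9158 and 8004 on day 2 (log2 fold change -0.58, SE 0.14, adjusted p = 0.00547). Lin28a, an RNA-binding protein that blocks maturation of let-7 microRNAs, moved the other way and without overlap, from 19467, 16158 and 21812 on day 1 to 35656, 34131 and 33338 on day 2 (log2 fold change 0.85, SE 0.11, adjusted p = 1.38e-05).

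Of 14 genes listed for the formative and primed state, 6 rose (Fgf5, Pou3f1, Zic2, Zic5, Sox3 and Sall2), which is 42.9% beside 9.03% of all genes, 1 fell (7.14% beside 7.54%), and Sox3 alone was called. The median of the list was 0.38. Sox3, a SoxB1 factor of epiblast and early neural cells, was at 596, 371 and 471 normalized counts on day 1 and 2126, 1965 and 1926 on day 2 (log2 fold change 2.09, SE 0.23, adjusted p = 2.34e-06). The day 2 libraries lay more than 3 times above the highest day 1 library, and the gene was called with each of the 6 libraries left out. Fgf5, the ligand that marks the epiblast after implantation, was at 2272, 1561 and 2118 on day 1 and 4956, 4592 and 4653 on day 2 (log2 fold change 1.27, SE 0.21, adjusted p = 0.000191). Again no libraries overlapped.

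Some genes that define the primed state missed the test at this step. Otx2 was at 9442, 8739 and 9109 on day 1 and 9866, 10004 and 10006 on day 2 (log2 fold change 0.13, SE 0.10, adjusted p = 0.424), after 3303, 3927 and 3349.7 on day 0. Dnmt3b was at 73927, 66927 and 75365 on day 1 and 127590.0, 130428 and 125843 on day 2 (log2 fold change 0.83, SE 0.29, adjusted p = 0.0559), so that the days did not overlap while the test was missed. Among those that rose, Sall2 and Zic2 had log2 fold changes of 0.96 and 0.77, and Pou3f1 had 0.65, which lost its adjusted p below 0.05 without day 1 replicate 2.

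The LIF pathway signals through the receptor subunits Lifr and gp130 to Stat3. Of its 13 listed genes, 7 fell (Lifr, Socs3, Klf4, Tfcp2l1, Gbx2, Pim1 and Bcl3), beside 7.54% of all genes, and 5 to 7 did with one library left out. None rose by limma (nor had any an unadjusted p under 0.05 when higher), and Gbx2 was called. The median was -0.57. The receptor gene Lifr was at 2122, 2489 and 2249.8 normalized counts on day 1 and 1109, 1137 and 1036 on day 2 (log2 fold change -1.06, SE 0.14, adjusted p = 2.02e-05). Each day 2 library was near the level of the others and below every day 1 library. Gbx2, a homeobox gene downstream of Stat3, was at 457, 395 and 441 and then 165, 152 and 119 (log2 fold change -1.57, SE 0.29, adjusted p = 0.000589), and its call was lost whichever of the 6 libraries was left out, with adjusted p up to 0.00512. Of its 31-base words 42.7% are shared with other transcripts. Socs3, a feedback inhibitor and target of Stat3, was at 448, 287 and 518 on day 1 and 279, 234 and 192 on day 2 (log2 fold change -0.80, SE 0.25, adjusted p = 0.0341). Stat3 itself was at 1779, 1572 and 1971 on day 1 and 1138, 1314 and 1508 on day 2 (log2 fold change -0.43, SE 0.15, adjusted p = 0.0579).

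Among 9 enzymes that write or remove DNA methylation, Tet2 and Dnmt3l fell and Tet3 and Tdg rose. Dnmt3l, the cofactor of the de novo methyltransferases, was at 15898, 23837 and 18553 normalized counts on day 1 and 8621, 9108 and 9115 on day 2 (log2 fold change -1.10, SE 0.18, adjusted p = 0.000203). Tet3 had a log2 fold change of 0.72, adjusted p = 0.0404, which became 0.63 with an adjusted p of 0.158 without day 1 replicate 2. The glycosylase gene Tdg had one of 0.43, adjusted p = 0.00271. The maintenance enzyme gene Dnmt1 had a log2 fold change of -0.16, adjusted p = 0.71, and Dnmt3a one of -0.22, adjusted p = 0.627.

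Of 19 genes listed for Nodal and BMP signalling, 8 fell (Nodal, Lefty1, Lefty2, Tdgf1, Smad7, Bmp4, Smad6 and Inhbb) and 4 rose (Id1, Id2, Id3 and Chrd), beside 7.54% and 9.03% of all genes, with a median of -0.69. Lefty1 and Lefty2, secreted inhibitors of Nodal that are also its targets, were called lower. Without day 1 replicate 2, Id3 was the only one of the 4 that still rose.

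The ligand gene Nodal was at 1592, 2262 and 1393 normalized counts on day 1 and 638, 706 and 712 on day 2 (log2 fold change -1.32, SE 0.29, adjusted p = 0.00253). Its co-receptor gene Tdgf1, also called Cripto, was at 14357, 15411 and 13283 on day 1 and 4614, 5175 and 5586 on day 2 (log2 fold change -1.49, SE 0.39, adjusted p = 0.0113). Both were separated without overlap. Lefty1 was at 1999, 2345 and 1399 and then 629, 646 and 693 (log2 fold change -1.51, SE 0.25, adjusted p = 0.000227), and Lefty2 was at 5474, 5488 and 4186 and then 1596, 1424 and 1376 (log2 fold change -1.78, SE 0.34, adjusted p = 0.00096). The Lefty1 call held in 1 of the 6 fits with a library left out and the Lefty2 call in none, with log2 fold changes of -1.35 and -1.71 without day 1 replicate 2. Inhbb, an activin subunit gene, was low and lower still on day 2, at 32.7, 60.5 and 24.9 on day 1 and 6.88, 13.9 and 6.14 on day 2 (log2 fold change -2.0, SE 0.48, adjusted p = 0.00552).

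The ligand gene Bmp4 was at 1936, 1847 and 1949 normalized counts on day 1 and 767, 828 and 855 on day 2 (log2 fold change -1.23, SE 0.20, adjusted p = 0.000232). Id3, an inhibitor of basic helix-loop-helix factors and a target of BMP signals, was at 1555, 923 and 1654 and then 4025, 3494 and 3431 (log2 fold change 1.45, SE 0.17, adjusted p = 6.94e-06). The day 2 libraries of Id3 were all above those of day 1. Id1 was at 989, 377 and 919 on day 1, lowest in replicate 2, and 1573, 1331 and 1299 on day 2, with a log2 fold change of 0.99, adjusted p = 0.0182, which became 0.55 with an adjusted p of 0.159 without that replicate. Smad6, an inhibitory Smad gene, had a log2 fold change of -0.81, adjusted p = 0.0128.

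FGF, Wnt and Notch genes changed singly. Of 18 FGF and ERK genes, Fgf5, the receptor gene Fgfr2 (log2 fold change 0.63, adjusted p = 0.00145) and the feedback inhibitor gene Spry1 (log2 fold change 0.68, adjusted p = 0.00024) rose, and the ligand gene Fgf4 fell (log2 fold change -0.68, adjusted p = 0.0495), the last with no adjusted p below 0.05 once any library was left out. The median was 0.02. Of 18 Wnt genes, the inhibitor genes Nkd1 (log2 fold change 0.98, adjusted p = 0.00108) and Sfrp1 (log2 fold change 0.82, adjusted p = 2.69e-06) and the receptor gene Fzd7 (log2 fold change 0.60, adjusted p = 0.000777) rose and Notum fell. Notum, a secreted enzyme that inactivates Wnt proteins, was at 2921, 2602 and 2736 normalized counts on day 1 and 971, 1042 and 990.1 on day 2 (log2 fold change -1.46, SE 0.24, adjusted p = 0.000197). It was lower in each day 2 library. Axin2, a general target of Wnt signals, had a log2 fold change of 0.00, adjusted p = 0.995. Of 14 Notch genes, Dll1, Hey1 and Lfng rose and Hey2 fell, and none of the 3 rises held without day 1 replicate 2, nor the fall of Hey2 once any one of the 6 libraries was left out.

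Of 20 genes listed for the anterior neural plate and eye field, 5 rose (Nes, Six3, Sox11, Otx1 and Lhx5), 2 fell (Sox21 and Hesx1) and Nes was called. These are 25% and 10% of the list, beside 9.03% and 7.54% of all genes. Otx1, Lhx5 and Hesx1 no longer passed without day 1 replicate 2 (adjusted p = 0.137, 0.131 and 0.0543). The rises also numbered 3 without day 2 replicate 1 or 2, and the falls 1 with any of the 6 libraries left out. The median was -0.03, which was 0.05 after quantile normalization. Nes, the intermediate filament gene of neural progenitors, was at 779, 642 and 627 normalized counts on day 1 and 2239.6, 2202 and 2139 on day 2 (log2 fold change 1.69, SE 0.13, adjusted p = 3.69e-08). The replicates of each day lay close together and the call held with each library left out. Six3, a homeobox gene needed for the forebrain and eye, was barely detected, at 8.55, 5.08 and 9.37 on day 1 and 35.9, 17.1 and 16.0 on day 2 (log2 fold change 1.41, SE 0.25, adjusted p = 0.000424), and rose to 709 to 1198 on day 3. Rax, the gene that carries the reporter, was at 9.07, 18.4 and 13.0 on day 1 and 14.9, 10.7 and 10.5 on day 2, with the days overlapping (log2 fold change -0.12, SE 0.25, adjusted p = 0.833), and reached 89.3 to 156 on day 3. Its log2 fold change changed sign without day 1 replicate 2, at 0.12, and after quantile normalization, at 0.03, so no direction is given. Sox21, a SoxB2 factor also expressed in ES cells, was at 181, 311 and 205 and then 103, 92.1 and 87.7 (log2 fold change -1.25, SE 0.16, adjusted p = 1.96e-05).

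Markers of other lineages had mostly not passed the test by day 2. Of 13 mesendoderm genes only Gsc rose (log2 fold change 1.21, adjusted p = 0.0145), to levels of 21.1 to 27.5 normalized counts, and it no longer did so without day 1 replicate 2. The rises numbered 0 also without day 1 replicate 1 or day 2 replicate 1, 3 without day 1 replicate 3 and 2 after quantile normalization. Of 11 endoderm genes none rose or fell by limma, with 2 at an unadjusted p under 0.05 in each direction. Of 12 trophoblast genes, Krt18 rose (log2 fold change 1.23, adjusted p = 0.0202) and Gata3 (log2 fold change -1.13, adjusted p = 0.047), Tfap2c (log2 fold change -1.15, adjusted p = 0.000106) and Plet1 (log2 fold change -1.01, adjusted p = 0.00402) fell, of which Krt18 and Gata3 did not pass without day 1 replicate 2 (adjusted p = 0.0552 and 0.157). The rise was kept only without day 2 replicate 2, and the falls numbered 2 without any one of the day 1 libraries. Of 14 germline genes none rose or fell by limma, and 5 were lower at an unadjusted p under 0.05. The 3 markers Gata3, Cdx2 and Elf5 summed to between 91.5 and 126 normalized counts on day 1 and between 55.4 and 67.9 on day 2.

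Of 17 epithelial and cadherin genes, 5 rose (Cldn7, Cldn6, Ocln, Zeb2 and Twist1) and 3 fell (Zeb1, Snai2 and Vim), beside 9.03% and 7.54% of all genes, with a median of 0.28. Cldn7, a tight junction claudin gene, was called higher, with 561, 564 and 449 normalized counts on day 1 and 1902, 1809 and 1938 on day 2 (log2 fold change 1.85, SE 0.17, adjusted p = 2.2e-07). It was called with any library left out. Cldn6, a claudin gene of embryonic epithelia, was at 3076, 3120.4 and 2686 and then 7097, 6719 and 7015 (log2 fold change 1.23, SE 0.19, adjusted p = 0.000106), and Ocln, which encodes occludin of the same junctions, had a log2 fold change of 0.86, adjusted p = 0.00123. The E-cadherin gene Cdh1 had a log2 fold change of 0.24, adjusted p = 0.663. The paired zinc finger repressors of epithelial genes went in opposite directions without overlap. Zeb1 was at 596, 462 and 527 on day 1 and 188, 244 and 216 on day 2 (log2 fold change -1.29, SE 0.21, adjusted p = 0.000191). Zeb2, a factor of neural induction as well, was at 56.3, 18.8 and 55.5 on day 1 and 105, 134 and 92.5 on day 2 (log2 fold change 1.46, SE 0.30, adjusted p = 0.00151). Without day 1 replicate 2, Zeb1 was the only one of the 3 genes that fell still to do so, and Twist1 had an adjusted p of 0.125.

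Of 19 genes of basement membrane components and integrins, 4 fell and none rose (no gene had an unadjusted p under 0.05 when higher), beside 7.54% and 9.03% of all genes. Nid1, which encodes nidogen, the linker between laminin and type IV collagen, was called lower, with 2292, 3857 and 2346 normalized counts on day 1 and 759.9, 1020.0 and 999 on day 2 (log2 fold change -1.58, SE 0.25, adjusted p = 0.000151). Its call held in 4 of the 6 fits with a library left out and its log2 fold change was -1.34 with an adjusted p of 0.00197 without day 1 replicate 2. Nid2, its paralogue, was at 18927, 22492 and 16119 and then 9593, 10467 and 11052 (log2 fold change -0.88, SE 0.16, adjusted p = 0.000647). Fn1, the fibronectin gene, was at 36006, 40174 and 31168 on day 1 and 15987, 18501 and 19340.4 on day 2 (log2 fold change -0.99, SE 0.19, adjusted p = 0.00107). All 3 genes were lower in each day 2 library. Lamc1, the laminin gamma 1 gene, fell with all libraries (log2 fold change -0.50, adjusted p = 0.0389) but not without day 1 replicate 2, and the type IV collagen genes Col4a1 and Col4a2 had log2 fold changes of -0.07 and -0.10, both with overlapping days.

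Of 15 glycolysis genes, the glucose transporter gene Slc2a1 and Pfkl (log2 fold change 0.73, adjusted p = 0.000853), Tpi1 (log2 fold change 0.59, adjusted p = 0.0292) and Ldha (log2 fold change 0.87, adjusted p = 0.00171) rose, while Slc2a3 (log2 fold change -0.55, adjusted p = 0.0145) and Pfkp (log2 fold change -0.52, adjusted p = 0.048) fell. Tpi1, Slc2a3 and Pfkp did not pass without day 1 replicate 2 (adjusted p = 0.0698, 0.12 and 0.34). The rises numbered 3 with any of the 6 libraries left out, and the falls 0 without day 2 replicate 1 or 2 and 1 without day 1 replicate 3 or day 2 replicate 3. Slc2a1 was at 17645, 17110.5 and 16144 normalized counts on day 1 and 38409, 38293 and 40103 on day 2 (log2 fold change 1.20, SE 0.21, adjusted p = 0.000457), with every day 2 library more than 2 times the highest day 1 library. Of 14 hypoxia response genes, Vegfa and Egln1 rose and Car9 and Kdm3a fell, and 1 of the 2 rises was lost without day 1 replicate 3 or day 2 replicate 3. Of 18 cholesterol synthesis genes 15 were higher in every day 2 library than in any day 1 library (22.1% of all genes were), with a median of 0.23, but only Fdps and Sc5d rose and neither did without day 1 replicate 2. Of 13 amino acid and stress response genes, 6 rose (Atf4, Trib3, Chac1, Psat1, Phgdh and Slc7a11) and none fell, beside 9.03% and 7.54% of all genes, with a median of 0.48. The 6 rises were also 6 in each fit that left out a library. Chac1, a target of Atf4 that degrades glutathione, was at 388, 324 and 437 and then 798, 777 and 716 (log2 fold change 1.00, SE 0.20, adjusted p = 0.00139).

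p53 target genes fell in 5 of 12 cases (Cdkn1a, Mdm2, Trp53inp1, Fas and Btg2) and rose in 1 (Pmaip1), which is 41.7% and 8.33% beside 7.54% and 9.03% of all genes, with 3 falls left without day 1 replicate 2. Fas, a death receptor gene, was near the detection limit on day 2, at 13.5, 10.4 and 9.93 normalized counts on day 1 and 2.09, 1.95 and 1.60 on day 2 (log2 fold change -2.08, SE 0.41, adjusted p = 0.00121). Of 17 cell cycle genes, Ccnd3 (log2 fold change -0.58, adjusted p = 0.0271) and the inhibitor gene Cdkn1c (log2 fold change -0.89, adjusted p = 0.00735) fell, none rose or had an unadjusted p under 0.05 when higher, and Mki67 had a log2 fold change of -0.04, adjusted p = 0.946. Without day 1 replicate 2 the adjusted p of Ccnd3 was 0.121, and without day 2 replicate 3 neither gene passed. Immediate early genes, which respond within minutes to stimulation or handling, varied among replicates. Fos was at 192, 92.9 and 460.2 on day 1 and 820.0, 496 and 216 on day 2, with overlap (log2 fold change 1.14, SE 0.71, adjusted p = 0.32). Of 11 tested, Ier3 (log2 fold change -1.04, adjusted p = 0.0239) and Nr4a1 (log2 fold change -0.79, adjusted p = 0.00153) fell, and 1 gene fell without day 1 replicate 1 or 3 or day 2 replicate 1 or 2.

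Imprinted genes changed in both directions. Of 15 listed, 8 rose (Meg3, Rian, Mirg, Dlk1, Peg3, Grb10, Snrpn and Nnat) and 4 fell (H19, Igf2, Peg10 and Cdkn1c), beside 9.03% and 7.54% of all genes. Meg3 and Rian, maternally expressed non-coding RNAs of the Dlk1 to Dio3 cluster, rose along with the cluster's paternally expressed Dlk1 (log2 fold change 0.85, adjusted p = 0.00442). Meg3 was at 15458, 8523 and 13667 normalized counts on day 1 and 26398, 29096 and 30534 on day 2 (log2 fold change 1.23, SE 0.29, adjusted p = 0.00434). Rian was at 8456, 4519.9 and 7751 and then 15439, 17063 and 18887 (log2 fold change 1.36, SE 0.26, adjusted p = 0.000942). In both, day 1 replicate 2 was the lowest library and no libraries overlapped between days. Igf2, a growth factor gene of the H19 to Igf2 cluster, was at 1286, 1837 and 976 on day 1 and 588, 484 and 542 on day 2 (log2 fold change -1.30, SE 0.23, adjusted p = 0.000371), and H19 fell too (log2 fold change -1.01, adjusted p = 0.0028). Without day 1 replicate 2 the rises numbered 6, and the adjusted p of Peg10 was 0.0511.

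**Figure D3:**
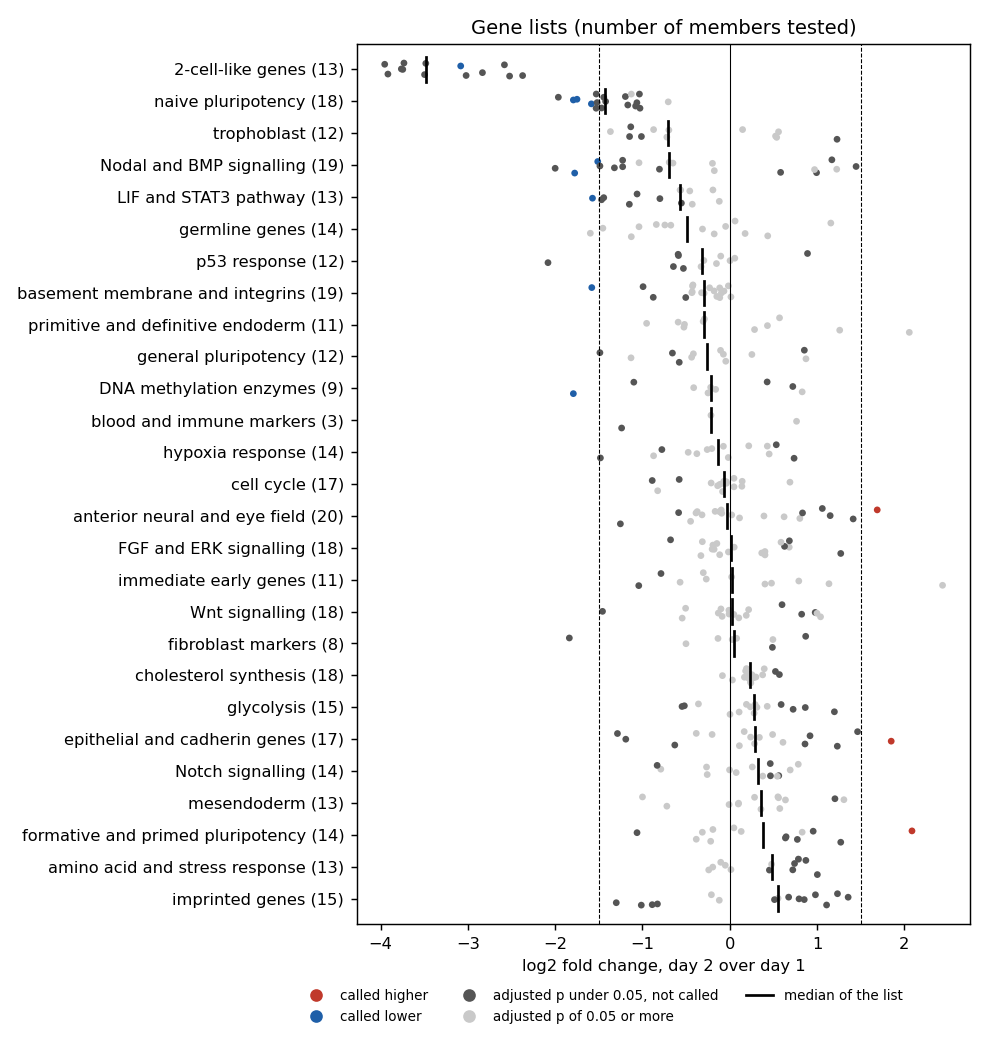
Log2 fold change from day 1 to day 2 (horizontal axis) of each tested member of 27 gene lists (rows), with points coloured by the test and a bar at the median of the list. Naive pluripotency and the 2-cell-like genes lie wholly below 0, at medians of -1.43 and -3.48, while most other lists straddle 0.

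The 2-cell-like genes had the lowest median of the 27 lists, and their day 1 libraries were uneven. These genes are transcribed at the 2-cell stage of the mouse embryo and, in ES cell culture, in a small and changing share of cells. All 13 tested fell, as did 7.54% of all genes, with a median of -3.48, and all 13 were lower on day 2 without overlap, as were 23.6% of all genes. Their summed level on day 0 was 23581, 8396 and 9506 normalized counts, on day 1 it was 5047, 20327 and 3288, and on day 2 it was 597, 608 and 792. On day 3 it lay between 375 and 559. Without day 1 replicate 2 the median was -2.64, 7 of the 13 fell and none was called by limma, although all 13 had an unadjusted p under 0.05 with all libraries.

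Zscan4d, of a family of zinc finger genes that mark the state, was at 433, 1539 and 298 normalized counts on day 1 and 45.9, 27.9 and 38.7 on day 2 (log2 fold change -3.95, SE 0.77, adjusted p = 0.00108). Day 1 replicate 2 was more than 3 times the other day 1 libraries, which were themselves more than 6 times above any day 2 library. Zfp352, a zinc finger gene of the 2-cell embryo, was the only called member, at 18.8, 79.8 and 33.3 and then 1.03, 9.66 and 3.17 (log2 fold change -3.08, SE 0.59, adjusted p = 0.000847), and its call held in 2 of the 6 fits with a library left out. With 5 in place of 1 added before the logarithm, 10 members were called, and with 0.5 none was. The Zscan4 copies share 65.0% to 95.2% of their 31-base words with other transcripts, so their values cannot be assigned to single copies.

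In 3 further genes called lower day 1 replicate 2 was also the highest library. Gm11237, which had the largest fall of all genes and like the next 2 was chosen after its values were seen, was at 138, 418 and 57.8 normalized counts on day 1 and 0, 1.07 and 13.2 on day 2 (log2 fold change -5.61, SE 0.87, adjusted p = 0.00011). Gm13693 was at 25.1, 121 and 15.7 on day 1 and 0, 2.66 and 3.75 on day 2 (log2 fold change -3.86, SE 0.66, adjusted p = 0.000314). The pseudogene Obox4-ps28 was at 272, 930.3 and 183 on day 1 and 50.6, 30.0 and 66.9 on day 2 (log2 fold change -2.92, SE 0.52, adjusted p = 0.000455). That library was 3 times or more above both others in each of them, and none of the 3 was called without it (log2 fold changes -4.87, -3.01 and -2.23, adjusted p = 0.00154, 0.00321 and 0.00462). All 31-base words of these 3 (100%) are shared with other transcripts, so their values cannot be assigned to single genes.

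Of the 15 largest rises among well-detected called genes, 4 in genes known from neurons are given first. Tubb4a, a neuronal beta-tubulin gene, was at 163, 76.2 and 118 normalized counts on day 1 and 802, 856 and 844 on day 2 (log2 fold change 2.86, SE 0.17, adjusted p = 1.17e-09). Kif1a, the kinesin that carries synaptic vesicle precursors along axons, was at 1519, 789 and 1376 and then 8686, 8496 and 8332 (log2 fold change 2.85, SE 0.17, adjusted p = 1.17e-09). Each day 2 library of both was more than 4 times the highest day 1 library. Snph, which anchors mitochondria in axons, was at 123, 38.4 and 116 on day 1 and 704, 545 and 546 on day 2 (log2 fold change 2.84, SE 0.41, adjusted p = 5.07e-05). Scn9a, a voltage-gated sodium channel gene, was at 15.2, 1.86 and 6.60 and then 78.2, 60.2 and 67.8 (log2 fold change 3.29, SE 0.46, adjusted p = 4.06e-05). In these 4 genes day 1 replicate 2 was the lowest library, and all 4 were called with any library left out.

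Of the other rises, 7 that were likewise called with each library left out are given next. Prickle1, a planar cell polarity gene, was at 508, 289 and 447 normalized counts on day 1 and 2734, 2747 and 2506 on day 2 (log2 fold change 2.72, SE 0.14, adjusted p = 3.52e-10). Cxcl12, a chemokine that guides migrating cells, was at 317, 138 and 252 and then 1563, 1661 and 1530.2 (log2 fold change 2.82, SE 0.26, adjusted p = 1.99e-07). Both were separated by a wide gap, with no day 2 library under 4 times the highest day 1 library. Mcoln3, a cation channel of endosomes and lysosomes, had day 1 replicates close to each other, at 40.6, 45.2 and 42.7 on day 1 and 436, 423 and 364 on day 2 (log2 fold change 3.22, SE 0.34, adjusted p = 1.54e-06). Aqp4, a water channel gene, rose from 12.4, 2.75 and 6.50 to 88.3, 86.8 and 90.4 (log2 fold change 3.63, SE 0.44, adjusted p = 7.6e-06), and Atp2a1, a calcium pump gene, from 24.3, 18.1 and 12.8 to 117, 131 and 164 (log2 fold change 2.87, SE 0.32, adjusted p = 2.72e-06). The other 2 of the 7 were Klhl14 and Mpp4, with log2 fold changes of 2.83 and 2.65.

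A further 3 of the 15 lost the call without day 1 replicate 2. Ldb2, a cofactor that binds LIM-domain proteins, had the largest rise of all called genes, at 28.1, 1.35 and 11.97 normalized counts on day 1 and 156, 149.5 and 174 on day 2 (log2 fold change 4.06, SE 0.70, adjusted p = 0.000358), and 3.05 with an adjusted p of 0.00284 without that replicate. Krt80, a keratin gene, was at 14.7, 10.1 and 8.69 and then 115, 125 and 96.6 (log2 fold change 3.24, SE 0.52, adjusted p = 0.000163). Ptprt, a receptor tyrosine phosphatase gene, was at 65.9, 5.28 and 14.8 on day 1 and 100.3, 165 and 116 on day 2 (log2 fold change 2.74, SE 0.52, adjusted p = 0.00084). In Ldb2 and Ptprt the day 1 replicates differed among themselves by more than 10 times.

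Prickle1 has 2 promoter windows in RefSeq, and the one that holds a SOX motif is shown because this gene had the lowest adjusted p of the named rises. It lies on the minus strand at chr15:93519471-93519770, and capitals mark the motif, here in the orientation CATTGTT, 174 bases before the start.
Prickle1: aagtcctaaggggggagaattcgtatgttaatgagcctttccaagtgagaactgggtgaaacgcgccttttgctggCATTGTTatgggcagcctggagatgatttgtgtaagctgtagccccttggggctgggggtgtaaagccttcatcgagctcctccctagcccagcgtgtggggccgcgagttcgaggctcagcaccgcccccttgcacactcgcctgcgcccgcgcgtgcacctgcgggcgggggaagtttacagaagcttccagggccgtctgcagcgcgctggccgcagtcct

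The 15 largest falls included receptors and regulators outside the naive list. Epas1, the hypoxia-inducible factor 2 alpha gene, was at 4488, 5928 and 4819.9 normalized counts on day 1 and 955, 1081 and 989 on day 2 (log2 fold change -2.32, SE 0.33, adjusted p = 4.62e-05). Ngfr, the p75 neurotrophin receptor gene, was at 576, 740.1 and 714 and then 156, 133 and 125 (log2 fold change -2.29, SE 0.32, adjusted p = 3.6e-05). Myof, a ferlin gene of membrane repair, was at 864, 2094 and 1022 on day 1, highest in replicate 2, and 214, 327 and 243 on day 2 (log2 fold change -2.25, SE 0.31, adjusted p = 3.85e-05). These 3 were the falls called with each library left out. Kdr, which encodes VEGF receptor 2, was at 145, 143 and 165 and then 27.3, 36.2 and 33.3 (log2 fold change -2.20, SE 0.41, adjusted p = 0.000676). It was again at 123 to 150.1 on day 3, a level close to that of day 1. Its call was lost whichever of the 6 libraries was left out.

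The other 11 of the 15 falls include 10 that were not called without day 1 replicate 2. Khdc3, part of the subcortical maternal complex of the egg, was at 1866, 2331 and 1930.5 normalized counts on day 1 and 381, 413 and 398 on day 2 (log2 fold change -2.35, SE 0.38, adjusted p = 0.000191), with 36.7% of its 31-base words shared with other transcripts. Usp17lb, a deubiquitinase gene of the same family as Usp17la, Usp17lc and Usp17le of the 2-cell-like list, was at 106, 392.5 and 73.2 and then 12.2, 10.2 and 21.5 (log2 fold change -3.30, SE 0.59, adjusted p = 0.00051), with 31% of its words shared. Calcoco2, an autophagy receptor gene, was at 713, 1628 and 886 on day 1 and 176, 215 and 162 on day 2 (log2 fold change -2.46, SE 0.43, adjusted p = 0.000396). In these 3 genes day 1 replicate 2 was the highest library, and none was called without it. The same was true, with the log2 fold change in parentheses, of AF067061 (-2.72, with 40.0% of its words shared), Nkx2-9 (-2.48), Ccdc38 (-2.19), Gfod1 (-2.13), the long non-coding RNA C78283 (-2.08), H2-M5 (-1.98) and Nfam1 (-1.97). Tmem72 was at 2797, 8937 and 2201 on day 1 and 714, 983 and 909 on day 2 (log2 fold change -2.14, SE 0.36, adjusted p = 0.000256), and its log2 fold change without day 1 replicate 2 was -1.53 with an adjusted p of 0.00081. Of its words 31.6% are shared.

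**Figure D4:**
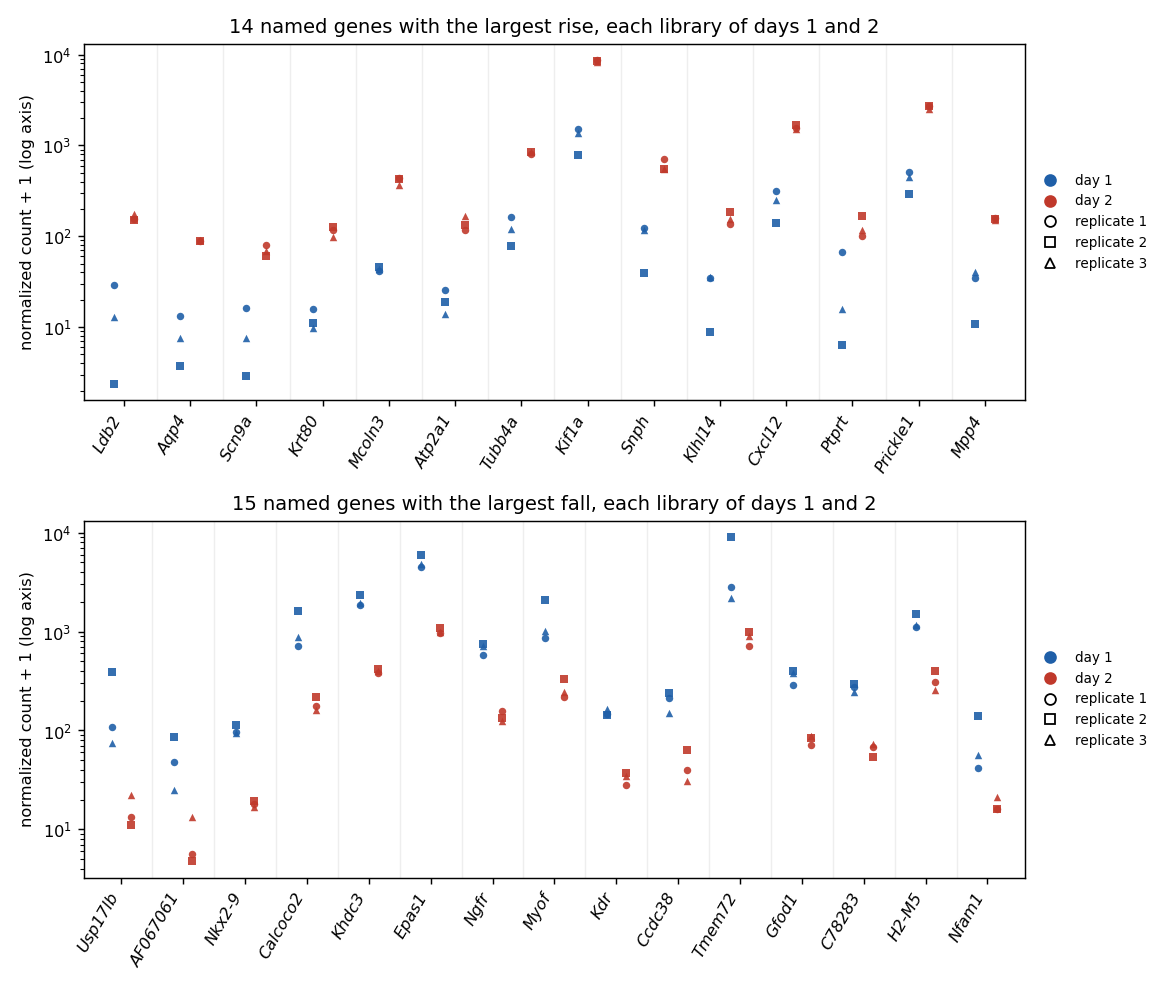
Normalized count + 1 (vertical axis, log scale) on days 1 and 2 of 14 of the 15 largest called rises and of the 15 largest called falls with a mean of at least 50 on the higher day, with 1 point per replicate. No gene shown has overlapping days, and day 1 points are more spread than day 2 points in genes such as Ldb2, Ptprt and Tmem72.

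Further called genes, chosen after their values were seen, are given as mean ± SD of 3 replicates. The synaptic vesicle gene Syp went from 146 ± 26.2 to 436 ± 83.7 normalized counts (log2 fold change 1.57, adjusted p = 7.23e-06), the growth cone gene Gap43 from 131 ± 24.1 to 390.0 ± 13.5 (log2 fold change 1.59, adjusted p = 6.18e-05), and the actin-binding gene Dbn1 from 1644 ± 554 to 4737 ± 121 (log2 fold change 1.59, adjusted p = 4.47e-06). The glutamate receptor subunit gene Grik5 went from 549 ± 107 to 1650.1 ± 14.4 (log2 fold change 1.61, adjusted p = 8.59e-06) and the GABA receptor subunit gene Gabra3 from 64.2 ± 24.4 to 313 ± 55.2 (log2 fold change 2.33, adjusted p = 5.1e-07). These values lay in all cases above those of day 1 in each library. Crabp2, which binds retinoic acid, went from 313 ± 47.7 to 1273 ± 62.7 (log2 fold change 2.03, adjusted p = 5.69e-05), and the homeobox gene Lmx1b from 54.7 ± 17.9 to 199 ± 16.2 (log2 fold change 1.90, adjusted p = 5.59e-05). Syp, Gap43, Dbn1 and Grik5 were short of the fold threshold without day 1 replicate 2 (log2 fold changes 1.49, 1.42, 1.27 and 1.44), and the other 3 were still called.

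A further 5 genes called lower were also chosen after their values were seen. Alpl, the alkaline phosphatase gene by which ES cell colonies are stained, went from 5821 ± 328 to 1978 ± 158 (log2 fold change -1.56, adjusted p = 1.96e-05). Zfp57, which protects imprinted regions from loss of methylation, went from 13281 ± 2209.8 to 4145 ± 475 (log2 fold change -1.67, adjusted p = 6.34e-06). Sox15 went from 575 ± 33.2 to 175 ± 30.8 (log2 fold change -1.73, adjusted p = 0.000858). All 3 were lower in each day 2 library. The junction adhesion gene Jam2 went from 2289 ± 800.1 to 635 ± 76.0 (log2 fold change -1.80, adjusted p = 1.66e-06) and the epidermal factor gene Grhl3 from 867 ± 94.2 to 269.5 ± 39.7 (log2 fold change -1.69, adjusted p = 2.32e-07). Sox15 was not called without day 1 replicate 2 (adjusted p = 0.00482) and the other 4 were.

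Of the 198 genes called higher, 20 (10.1%) lie on the X chromosome, compared with 4 of the 111 called lower (3.6%) and 3.58% of all genes tested. Besides Sox3 the 20 included Gabra3 and Irs4, an insulin receptor substrate gene at 146, 83.4 and 137 normalized counts on day 1 and 627, 591 and 543 on day 2 (log2 fold change 2.29, SE 0.18, adjusted p = 5.42e-08). Irs4 was chosen after its values were seen and separated the days without overlap. Xist, the RNA that silences an X chromosome, was at 74.7, 169 and 121 on day 1 and 90.4, 119.5 and 84.0 on day 2, and the days overlapped (log2 fold change -0.25, SE 0.76, adjusted p = 0.888). Its antisense partner Tsix was at 368, 355 and 320.4 and then 157, 197 and 196 (log2 fold change -0.93, SE 0.31, adjusted p = 0.0419). Without day 1 replicate 2 it did not pass (log2 fold change -0.91, adjusted p = 0.113). Since no source used here states that the reads were counted by strand, reads of the pair cannot be told apart.

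The day 1 to day 2 step was set beside its neighbours, with which it shares libraries. From day 0 to day 1, 72 genes were called higher (0.343%) and 83 lower (0.395%), and from day 2 to day 3, 150 were higher (0.714%) and 61 lower (0.29%). The genes called higher from day 1 to day 2 had a median log2 fold change of 0.16 in the step before and 0.76 in the step after, while those called lower had medians of -0.50 and -0.40. Both sets were chosen by day 1 and day 2 libraries that also enter the neighbouring steps. The choice itself therefore pulls these medians away from the direction of the call. Values over successive steps follow for 5 genes. Nanog had log2 fold changes of -1.39, -1.58 and 0.69 over the 3 successive steps, Zfp42 had -0.50, -1.75 and -0.84, and Klf4 had -1.67, -1.47 and -0.28. Sox3 had 1.22, 2.09 and 0.33, and Dnmt3b had 1.89, 0.83 and 0.00.

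A test of the difference between steps called 59 genes with a higher change from day 1 to day 2 than from day 0 to day 1 (0.281%) and 5 with a lower one (0.0238%). Of the 59, 32 were also called higher from day 1 to day 2, as were 0.943% of all genes, and the other 27 were not. The tested difference contains the change from day 1 to day 2, so this overlap is in part built in. Nes had a log2 fold change of -0.74 from day 0 to day 1 and of 1.69 from day 1 to day 2 (log2 difference 2.43, SE 0.22, adjusted p = 6.35e-06). Cxcl12 turned from -0.40 to 2.82 (log2 difference 3.22, SE 0.45, adjusted p = 0.000266), and Cldn7 from -0.26 to 1.85 (log2 difference 2.11, SE 0.29, adjusted p = 0.000273). Prickle1 went from 0.23 to 2.72 (log2 difference 2.49, SE 0.25, adjusted p = 1.19e-05) and Kif1a from 0.81 to 2.85 (log2 difference 2.03, SE 0.29, adjusted p = 0.00041). In a fit of the groups compared only, both counts were 0 by limma, with 1288 and 1357 genes at an unadjusted p under 0.05. The higher changes numbered 137 without day 0 replicate 1, 20 and 36 without day 1 replicates 2 and 3, and 29 and 37 without day 2 replicates 1 and 2, and the lower ones numbered 1 to 18 with one library left out.

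Against the step that followed, 18 genes were called with a higher change from day 2 to day 3 (0.0857%) and 7 with a lower one (0.0333%). Eye field and forebrain genes were among the 18. Six3 had a log2 fold change of 1.41 from day 1 to day 2 and of 5.34 from day 2 to day 3 (log2 difference 3.93, SE 0.43, adjusted p = 8.7e-05), Rax of -0.12 and 3.13 (log2 difference 3.25, SE 0.44, adjusted p = 0.000438), and Hesx1 of -0.59 and 3.65 (log2 difference 4.24, SE 0.33, adjusted p = 7.6e-07). The rise of each of the 3 from day 2 to day 3 was thus larger than its change from day 1 to day 2. Kif1a and Prickle1 were among the 7, with smaller changes after day 2 than before it (log2 difference -2.25, SE 0.29, adjusted p = 0.000307 for Kif1a and log2 difference -2.15, SE 0.25, adjusted p = 8.7e-05 for Prickle1). The Atf4 targets Chac1 and Trib3 were among them as well. Chac1 had a log2 fold change of 1.00 from day 1 to day 2 and of -2.01 from day 2 to day 3 (log2 difference -3.02, SE 0.35, adjusted p = 8.7e-05). The higher changes numbered 51 without day 0 replicate 1, 11 without day 1 replicate 3 and 11 without day 3 replicate 2, and 5, 2 and 9 without day 2 replicates 1, 2 and 3. In a fit of the groups compared only, the counts were 4 and 2. The lower changes numbered 0 to 31 with one library left out, with 0 by limma without day 2 replicates 1 and 2, where 928 and 1022 genes had an unadjusted p under 0.05.

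Promoter windows of RefSeq were found for 137 of the 195 symbols called higher (179 windows), 55 of the 110 called lower (77 windows) and 13997 of 20830 symbols tested (17715 windows), the symbols being fewer than the entries where entries share one. In all, 10 motifs were searched on both strands. The octamer ATGCAAAT was in 2.6% of windows of genes called lower, 0.559% of those called higher and 1.39% of all. The SOX motif AACAATG was in 2.6%, 1.12% and 2.26%, and the KLF motif CCACACCC in 5.19%, 4.47% and 3.8%. The STAT motif TTCCNGGAA was in 0%, 1.12% and 1.17%, the ESRRB motif TCAAGGTCA in 0%, 0% and 0.271%, and the TCF/LEF motif CTTTGAT in 1.3%, 1.68% and 2.77%. The E-box CACGTG was in 5.19%, 6.15% and 9.14%, the CRE motif TGACGTCA in 3.9%, 2.79% and 2.66%, the ATF4 motif TGATGCAA in 3.9%, 1.12% and 0.587%, and the SREBP motif TCACNCCAC in 1.3%, 1.12% and 1.19%. With 77 windows of genes called lower, each of these shares rests on 4 windows or fewer, and 27 of the 111 genes called lower were also called without day 1 replicate 2. The octamer and the ATF4 motif share the letters ATGCAA and can overlap, and a match says nothing of binding.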

How the data were processed

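RNA-seq of polyadenylated RNA (TruSeq libraries) was measured in 24 libraries, 8 groups of 3, of which the 6 of day 1 and day 2 were compared. Per the labels, the authors estimated reads per gene with kallisto (version 0.43.1) on mm10 and normalized them with DESeq2. The deposited values are thus a normalized count signal per gene and library. They are not raw counts and were not divided by transcript length, so levels of different genes were not compared. Of low values up to 20 reads, 60.4% to 76.3% in the 6 libraries were whole multiples of 1 read (tolerance 0.1), so reads could not be recovered and count models were not run. Whether reads were counted by strand is not given in the sources used here. The table's 9 columns of the authors' own TRUE or FALSE calls between days were not used.

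Of 49705 entries, 21005 with at least 10 in at least 3 libraries were tested. In R 4.3.3, limma 3.58.1 was fitted to log2(value + 1) with 8 group means over all 24 libraries (eBayes with trend), and p-values were adjusted over all genes tested (Benjamini-Hochberg). Differences between successive steps were contrasts of the same fit. The script was tested on simulated data. Gene types and positions came from GENCODE M21, matched for 49266 entries, and shared 31-base words from its transcripts. Alternatives changed the pseudocount, filter, scaling, libraries in the fit, replicate block, thresholds and variance model, and left out each library. Named genes were the 15 largest called rises and falls with a mean of at least 50 on the higher day and no antisense, predicted or pseudogene entry, list members that were called or define a list, the 5 largest step changes per direction among called genes, and Rax, of which some are not reported here. The members and lists were chosen with earlier results of these data known.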

Additional observations from a re-analysis of the deposited data

Results flagged for a closer look

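The change of 10 called genes from day 1 to day 2 differed from their change in a neighbouring step, by a limma test of the difference itself. Compared with the step from day 0 to day 1, the log2 change was higher by 5.08 in Xkr4, 3.56 in Gria3, 3.53 in Ppp2r2b, 3.48 in Cd44 and 3.22 in Cxcl12. Xkr4, an Xk-related membrane protein gene, was at 7.69, 14.2 and 12.02 normalized counts on day 0, 4.30, 1.82 and 2.81 on day 1 and 39.4, 45.7 and 38.1 on day 2. Gria3, an AMPA receptor subunit gene, was at 69.2, 58.8 and 134, then 22.5, 23.4 and 20.2 and then 69.1, 66.5 and 88.9. The adhesion receptor gene Cd44 was at 107, 57.2 and 32.2, then 30.5, 18.3 and 21.6 and then 132, 84.4 and 111. Xkr4, Gria3 and Cd44 were each higher on day 0 than on day 1 by their means. Day 0 replicate 1 enters this contrast. That library correlated with the other day 0 libraries at 0.953 to 0.954, where those correlated with each other at 0.988.

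The pseudogene Gm14405 had the opposite difference, at -9.38 on the log2 scale. It was listed at 27.1, 15.6 and 35.8 on day 1 and at 0 in every library of days 0, 2 and 3, so it was at least 7.61-fold lower on day 2, counted against 3 reads per library. Of its 31-base words 98.5% are shared with other transcripts, and the part of that in the values was not tested.

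Compared with the step from day 2 to day 3, the later log2 change was lower by 2.25 in Kif1a (-2.25) and by 2.15 in Prickle1 (-2.15), and higher by 2.39 in Crtac1 and by 2.06 in Porcn. Porcn, the acyltransferase gene needed to secrete Wnt proteins, was at 629.6, 802 and 552 on day 1, 163, 212 and 215 on day 2 and 271, 255 and 211 on day 3. Crtac1, an extracellular matrix protein gene, was at 223, 293 and 253, then 70.0, 86.7 and 91.3 and then 181, 131 and 119. In both genes the fall from day 1 to day 2 was not continued to day 3.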

How the results depend on the processing

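The 198 and 111 genes called from day 1 to day 2 became 73 higher in a fit of the groups compared only, 226 lower with 5 added before the logarithm, 853 and 855 at an adjusted p under 0.05 with a log2 fold change above 1, 1897 and 1583 at that adjusted p alone, and 11 and 1 in a limma test against 1.5. With one library left out they ranged from 137 to 249 higher and from 31 to 173 lower. The 59 and 5 differences from the step before became 0 and 0 by limma in a fit of the groups compared only (1288 and 1357 at an unadjusted p under 0.05), 9 lower with 5 added, 11 lower with no filter, 510 and 193 or 606 and 279 at the looser thresholds, and 1 and 1 in the test against 1.5. They ranged from 20 to 137 and from 1 to 18 with one library left out. The 18 and 7 differences from the step after became 4 and 2, then 169 and 156 or 192 and 194, and 2 and 0 (29 at an unadjusted p under 0.05), with ranges of 2 to 51 and 0 to 31. The causes were not tested.

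Replicate numbers did not pair the samples. Deviations of same-numbered day 1 and day 2 libraries correlated at 0.059, 0.054 and -0.017, and 1 of 3 correlated best with its own number. A replicate block gave 193 and 108 genes from day 1 to day 2, 3 lower differences from the step before, and 18 and 6 from the step after. Rax changed direction, to 0.03 (0.0257) after quantile normalization and to 0.12 without day 1 replicate 2, and ranged from -0.35 to 0.12 with one library left out. Of the other values of named genes 738 kept direction and side of the threshold and 189 kept only direction, and of the counts by list 907 stayed within 1.5 times and 119 did not. Neither quantile normalization nor equal library totals changed the sign of any of the 3480 genes with an adjusted p under 0.05. With 28 of the genes called higher below 50 normalized counts in every day 2 library, the depth limits their fold changes.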
